A study of Mus musculus with 96 samples.

Results

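mitoLbNOX, a bacterial water-forming NADH oxidase carrying a mitochondrial matrix targeting sequence, was examined here on its own, in C2C12 myoblasts that received the vehicle DMSO and no respiratory inhibitor. C2C12 is a mouse muscle precursor cell line. The members were fixed by the labels, as the 3 mitoLbNOX and the 3 luciferase myoblast samples treated with DMSO for 10 hr, which make 6 of the 96 RNA-seq samples of the series. No measured value entered that choice. The comparison asks what expression of the matrix enzyme changes before any inhibitor is added.

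All the myoblasts used here had been infected with lentivirus and carried 1 transgene under the doxycycline-inducible TRE3G promoter. The transgene was luciferase as the control enzyme, mitoLbNOX, LbNOX without the targeting sequence, or NDI1, the single-subunit NADH dehydrogenase of yeast mitochondria. All were given 300 ng/ml doxycycline for 24 hr before treatment, luciferase cells included, and were kept in medium with 10 mM glucose, 4 mM glutamine and 10% dialyzed serum, without pyruvate. Each transgene was represented by 1 stable line, and no sample without doxycycline was used here, so the enzyme and the line that carries it cannot be told apart. Nothing in the labels says that the replicates came from separate cultures, so the p-values measure the spread between these samples, which may be technical. The LbNOX (3 samples) and NDI1 (2 samples) myoblasts with DMSO, and the mitoLbNOX and luciferase myoblasts with 0.5 µM piericidin (complex I inhibitor) or 0.5 µM antimycin (complex III inhibitor), were used for comparison. The model that gave the spread held these and the remaining myoblast samples treated for 10 hr, which were luciferase and LbNOX cells with 1 µM oligomycin (ATP synthase inhibitor), LbNOX cells with piericidin or antimycin and NDI1 cells with piericidin, 37 in all.

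In mitochondria, NADH made by the TCA cycle is normally reoxidized by complex I, which passes the electrons to ubiquinone and pumps protons. LbNOX passes the electrons of NADH straight to oxygen, making water without pumping protons, so a matrix form can lower the matrix NADH/NAD+ ratio even when complex I is at rest. One set of genes that responds to mitochondrial redox and amino acid status is the integrated stress response (ISR), in which phosphorylation of the translation factor eIF2α favours translation of the transcription factor ATF4, which in turn drives genes for amino acid synthesis and uptake, tRNA charging, and feedback regulators such as Trib3 and Ddit3.

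The transgene rows matched the labels. LbNOX reads were at 0 counts in the 3 luciferase samples and at 24020, 20419 and 20613 counts in the 3 mitoLbNOX samples, a mean of 1755 ± 143.3 CPM, counts scaled to a common library size (SD, n = 3). The untargeted LbNOX line carried 865 ± 32.26 CPM (n = 3), so the transcript was 2.029 times as high in the mitoLbNOX line, with no overlap between the groups (p = 0.1 by a two-sided exact permutation test, below which 3 against 3 samples cannot go). The 6 libraries held 10350994 to 13898633 counts. A single transcript, CT010467.1, took 24.83 to 28.73% of the counts of each. Among the 11 DMSO myoblast samples, the first principal component (30.63% of the variance) placed luciferase 1 and mitoLbNOX 3 at its opposite ends, and the mean distance of mitoLbNOX from luciferase samples was 1.063 times that within the lines (root mean square log2 difference 0.3389 between and 0.3188 within). Myoblast markers were present in all 6 samples, with a summed level of 6840 to 7031 CPM with luciferase and 6435 to 6850 CPM with mitoLbNOX. Des, the intermediate filament of muscle, was lower with mitoLbNOX (log2 difference -0.18, adjusted p = 0.0204, a call lost without any 1 of 4 samples), Myod1 differed by -0.24 (0.0534) and Myf5 by -0.52 (0.0638), neither of which passed. Of the 8 markers of differentiated muscle, 5 stayed under 16 counts in all 6 samples (summed level 17.29 to 22.34 CPM with luciferase and 15.97 to 20.35 CPM with mitoLbNOX), and summed fibroblast, endothelial, leukocyte and epithelial markers were at 6.037 CPM or less in each sample, with Cdh5, Cd3e and Epcam at 0.

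In the absence of inhibitors the matrix enzyme was accompanied by few and small differences. Of 11978 genes tested, 209 (1.74%) passed an adjusted p of 0.05 in edgeR's quasi-likelihood test, 117 higher (0.977%) and 92 lower (0.768%) with mitoLbNOX. Only 23 (0.192%) of them differed by at least 2-fold, and the median size of the called differences was 0.354 on the log2 scale. All 209 called genes had all 3 values of one line above the 3 of the other. The call and this separation rest on the same values, so the separation adds no support to the calls. For 84.41% of the genes with an interval, the 95% interval of the difference lay within 1 log2 unit of 0, and for 59.34% within 0.5. When luciferase 1 and mitoLbNOX 3 were both left out 96 calls remained, 94 of them shared with the 209. With 1 replicate left out there were 143 to 191. No other pair was left out, so the fall to 96 cannot be told apart from that due to smaller groups.

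**Figure D1:**
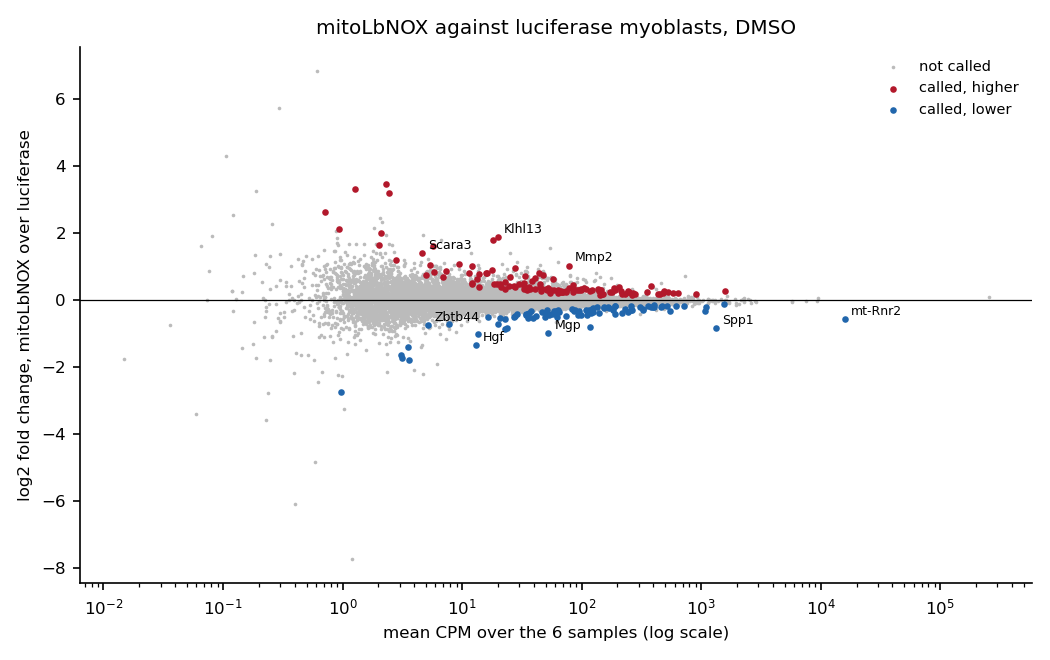
Log2 fold change of mitoLbNOX over luciferase myoblasts with DMSO (y axis) against the mean CPM of the 6 samples (x axis, log scale) for the 11978 tested genes, with the 117 called higher in red and the 92 called lower in blue. Most called genes lie within 1 log2 unit of 0, with Klhl13 above and Hgf below them.

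A part of the genes called higher lay together on 1 chromosome. Chromosome 8 held 45 of the 117 genes called higher (6.977% of its 645 tested genes, against 0.977% overall). When tested genes were grouped in 587 windows of 20 along the chromosomes, 8 windows had a median log2 difference of 0.15 or more, and 6 of these followed each other on chromosome 8, from 80764438 to 97429110 of GRCm38, a stretch of 16.66 Mb with 120 tested genes. In this stretch 112 of 120 genes (93.33%) were higher with mitoLbNOX, with a median of 0.28, and 39 of them were called higher and 0 lower, while the other 525 genes of the chromosome had a median of -0.01. The limits of the stretch were chosen after the values were seen, so no test was made of it.

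The stretch did not separate mitoLbNOX from the other enzymes. In the DMSO samples its median level, on a log2 scale relative to the mean of the 37 myoblast samples modelled together, was -0.177, -0.165 and -0.184 with luciferase and 0.09, 0.06 and 0.117 with mitoLbNOX. It was 0.113, 0.165 and 0.158 with LbNOX and 0.14 and 0.118 with NDI1. Over all treatments, the 12 luciferase samples ran from -0.306 to -0.165 and the 25 others from 0.022 to 0.229, so that the luciferase line stood apart from the other 3 lines whichever compound was given. Measured against the same luciferase samples, the median of the 120 genes was 0.33 for LbNOX and 0.31 for NDI1, and between mitoLbNOX and LbNOX it was -0.05 with 0 genes called (36 of 120 positive). Why the stretch differed was not tested, and no DNA was measured. Genes with a role of interest lie in it, among them Herpud1 and Gpt2 of the ISR, the phenylalanyl-tRNA synthetase subunit Farsa, the aspartate aminotransferase Got2, the complex I subunit Ndufb7 and the matrix protease Mmp2. Outside the stretch 170 genes were called, 78 higher and 92 lower.

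**Figure D2:**
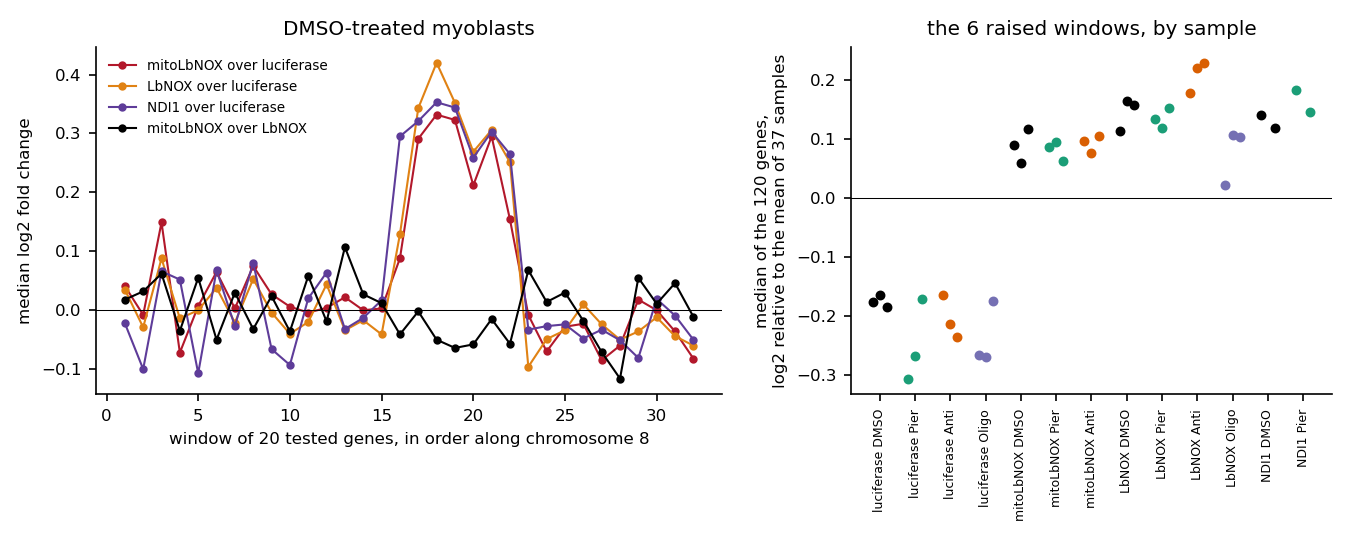
Left, median log2 fold change (y axis) of each window of 20 tested genes in order along chromosome 8 (x axis) for 4 comparisons of DMSO-treated lines; right, median log2 level of the 120 genes of the 6 raised windows relative to the mean of 37 samples (y axis), 1 point a sample, by line and treatment (x axis; black DMSO, green piericidin, orange antimycin, purple oligomycin). The 12 luciferase samples lie between -0.306 and -0.165 and the other 25 between 0.022 and 0.229.

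Klhl13, an adaptor of a cullin-3 ubiquitin ligase, had the largest increase among the named genes. It stood at 8.78, 7.55 and 9.15 CPM in the luciferase samples and at 34.3, 27.8 and 31.9 CPM in the mitoLbNOX samples (log2 1.89 ± 0.17 SE, adjusted p = 2.16e-08). Fbln5, an elastic fibre protein, rose from 19.9, 18.4 and 17.8 to 34.4, 36.7 and 38.1 CPM (0.96 ± 0.08, 1.75e-09). In LbNOX cells Klhl13 read 35.8, 31.8 and 28.9 CPM and Fbln5 30.8, 32.2 and 31.3 CPM, and neither passed the adjusted test between mitoLbNOX and LbNOX (-0.04 ± 0.16, adjusted p = 1, and 0.21 ± 0.08, 0.537), though the Fbln5 values did not overlap.

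Spp1, which encodes the secreted glycoprotein osteopontin, fell from 1758, 1686 and 1707 CPM to 1028, 954 and 926.5 CPM (log2 -0.82 ± 0.04, adjusted p = 8.99e-14). Mgp, a matrix inhibitor of calcification, fell from 70.0, 72.5 and 67.4 CPM to 34.3, 36.3 and 35.7 CPM (-0.98 ± 0.09, 2.16e-08). Hgf, the hepatocyte growth factor that activates muscle stem cells, fell from 18.7, 18.8 and 19.2 CPM to 6.14, 9.69 and 6.41 CPM (-1.35 ± 0.23, 0.000428). The groups did not overlap for any of the 3 genes, and the direct comparison with LbNOX gave -0.01 for Spp1, 0.11 for Mgp and 0.04 for Hgf, each with an adjusted p of 1.

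The other genes with large increases were Col6a2 (1.78), the Wnt modulator Sfrp2 (1.62), the scavenger receptor Scara3 (1.41), the growth factor Bmp4 (1.08), Mmp2 (1.03), Trib3 (1.03), Tmem45a (0.91), the retinoic acid binding protein Crabp2 (0.87), Rasl12 (0.84), Chst7 (0.82), Serpinb1a (0.81), the carbonic anhydrase Car3 (0.81) and Tinagl1 (0.80). Those with large decreases were the neuronal pentraxin Nptx1 (-1.02), Serpinb2 (-0.88), Car8 (-0.83), Col18a1 (-0.79), Zbtb44 (-0.74), the ligand Wnt10a (-0.71), serine racemase Srr (-0.71), the mitochondrial rRNA mt-Rnr2 (-0.57), placental growth factor Pgf (-0.56), Ctnnal1 (-0.55), the adhesion molecule Alcam (-0.54) and the potassium channel subunit Kcnf1 (-0.54). Luciferase 1 was the lowest of the 6 samples for Col6a2 (3.01 CPM against 10.2 and 11.1), Mmp2 (32.6 against 66.4 and 54.3) and Tinagl1 (19.7 against 40.5 and 37.1). Leaving out any 1 of several samples ended the call for Sfrp2, Scara3, Bmp4, Crabp2, Zbtb44, Wnt10a, Srr and Kcnf1. Leaving out luciferase 3 ended it for Rasl12, luciferase 1 for Chst7 and mitoLbNOX 3 for Ctnnal1.

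Of the 25 tested genes for collagens and matrix proteins, 5 were higher and 3 lower (1.74% of all tested genes were called), with a median of 0.10 against -0.006 for all tested genes. One of the 5, Mmp2, lies in the chromosome 8 stretch, and 4 were higher outside it. Calls in this list were not particular to mitoLbNOX. Against the same luciferase samples LbNOX gave 6 higher and 2 lower and NDI1 9 higher and 5 lower. Between mitoLbNOX and LbNOX 1 of the 25 was called. Col6a1 and Col6a2, which encode chains of collagen VI, rose, the former from 36.96, 36.14 and 34.17 CPM to 55.92, 58.79 and 64.83 CPM (log2 0.74 ± 0.10, adjusted p = 3.78e-05). Col6a3, which encodes the remaining chain of the classical trimer, moved the other way (-0.42 ± 0.09, 0.00462), though its adjusted p was 0.0532 without luciferase 3. Col5a2 (0.28) and thrombospondin Thbs1 (0.17) were higher and tenascin Tnc (-0.40) was lower, Thbs1 without a call when any 1 of 5 samples was left out.

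A few genes of the ISR were higher with mitoLbNOX. Of 30 tested members, 5 were higher and 0 lower (0.977% of all tested genes were called higher), 25 did not pass, 25 of 30 had a positive difference (48.46% of all tested genes did) and the median was 0.25. The called members were Trib3, Chac1, Herpud1, Asns and Gpt2. Without the 2 members in the chromosome 8 stretch, 3 of 28 were called and the median was 0.23. Atf4 itself (0.05 ± 0.03, adjusted p = 0.596), Ddit3 (0.27 ± 0.07, 0.0711), Gdf15 (0.48 ± 0.14, 0.0695), Atf3 (0.32 ± 0.36, 0.794) and Ppp1r15a (0.30 ± 0.10, 0.15) did not pass.

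Trib3, a pseudokinase that binds ATF4, had the largest difference of the called ISR genes. It stood at 9.40, 7.15 and 7.53 CPM in the luciferase samples and at 15.85, 17.14 and 15.97 CPM in the mitoLbNOX samples (log2 1.03 ± 0.10, adjusted p = 2.47e-08). Chac1, which degrades glutathione, stood at 20.3, 12.9 and 16.4 CPM and at 24.7, 21.4 and 22.9 CPM (0.48 ± 0.11, 0.0137), with luciferase 1 just below the lowest mitoLbNOX sample. Chac1 was no longer called when luciferase 2, luciferase 3 or mitoLbNOX 1 was left out, whereas Trib3 was called in each alternative. Asparagine synthetase, Asns, went from 165.7, 164.9 and 163.4 CPM to 205.0, 186.9 and 186.5 CPM (0.23 ± 0.05, 0.00656), a call lost without mitoLbNOX 1. The alanine aminotransferase Gpt2 (0.47 ± 0.11, 0.0121) was low in luciferase 1, at 48.58 CPM against 82.41 and 83.49 CPM in the other luciferase samples and 93.71 to 102.8 CPM with mitoLbNOX, and it was not called without mitoLbNOX 2.

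The start-site regions of several of these genes carry the composite element bound by ATF4 with a C/EBP partner. RefSeq windows of 300 bases on GRCm38.p6, from 250 before to 50 after the start, were searched on both strands for TGATGNAA, which occurred in 3.969% of 32851 windows. Of the 25 ISR members with a window 10 held it, as did 4 of the 5 called members. Among all genes called higher it was in 10 of 86 with a window (11.63%), and among those called lower in 2 of 64 (3.125%), against 2.56% of the tested genes with a window. The matches in called genes of amino acid metabolism and stress are shown on the strand of the gene, the match in capitals (TTNCATCA where it lies on the other strand). A match is a description of the letters and not a measured binding site.
Trib3, chr2:152344028-152344057, minus strand, from 15 after the start: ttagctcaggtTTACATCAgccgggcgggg
Chac1, chr2:119351023-119351082, plus strand, 193 before the start: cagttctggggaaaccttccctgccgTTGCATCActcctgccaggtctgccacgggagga
Herpud1, chr8:94386291-94386350, plus strand, 112 before the start: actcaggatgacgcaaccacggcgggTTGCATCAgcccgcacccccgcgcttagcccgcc
Asns, chr6:7693210-7693258, minus strand, 23 before the start: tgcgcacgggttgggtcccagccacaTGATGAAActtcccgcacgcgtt
Pycr1, chr11:120643818-120643877, minus strand, 103 before the start: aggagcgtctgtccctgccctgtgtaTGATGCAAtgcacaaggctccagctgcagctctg

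Single enzymes of serine and folate metabolism were higher as well. Of 17 tested, 4 were higher (0.977% of all tested genes were) and 0 lower, with a median of 0.01, close to that of all tested genes. Aldh1l2, the mitochondrial 10-formyltetrahydrofolate dehydrogenase, rose from 32.0, 31.4 and 30.4 CPM to 46.7, 49.4 and 42.1 CPM (log2 0.56 ± 0.06, adjusted p = 1.87e-06). Psph, which makes serine from phosphoserine, rose from 74.8, 67.8 and 62.4 CPM to 88.1, 88.2 and 87.4 CPM (0.36 ± 0.05, 3.74e-05). For both, each mitoLbNOX sample exceeded each luciferase sample, and Psph was not called in a model of only the groups compared (adjusted p = 0.068). Pycr1, the mitochondrial proline synthesis enzyme (0.40 ± 0.09, 0.0115), and Shmt2, the mitochondrial serine hydroxymethyltransferase (0.21 ± 0.04, 0.00526), were also called, Pycr1 not without luciferase 2 or mitoLbNOX 2 and Shmt2 not without mitoLbNOX 1 or mitoLbNOX 2. Of the 20 cytosolic tRNA synthetases, 2 were higher and 0 lower with a median of 0.04. These were Sars (0.17 ± 0.04, 0.00963), which was not called without mitoLbNOX 1 or mitoLbNOX 2, and Farsa (0.37 ± 0.05, 1.06e-05), which lies in the chromosome 8 stretch.

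**Figure D3:**
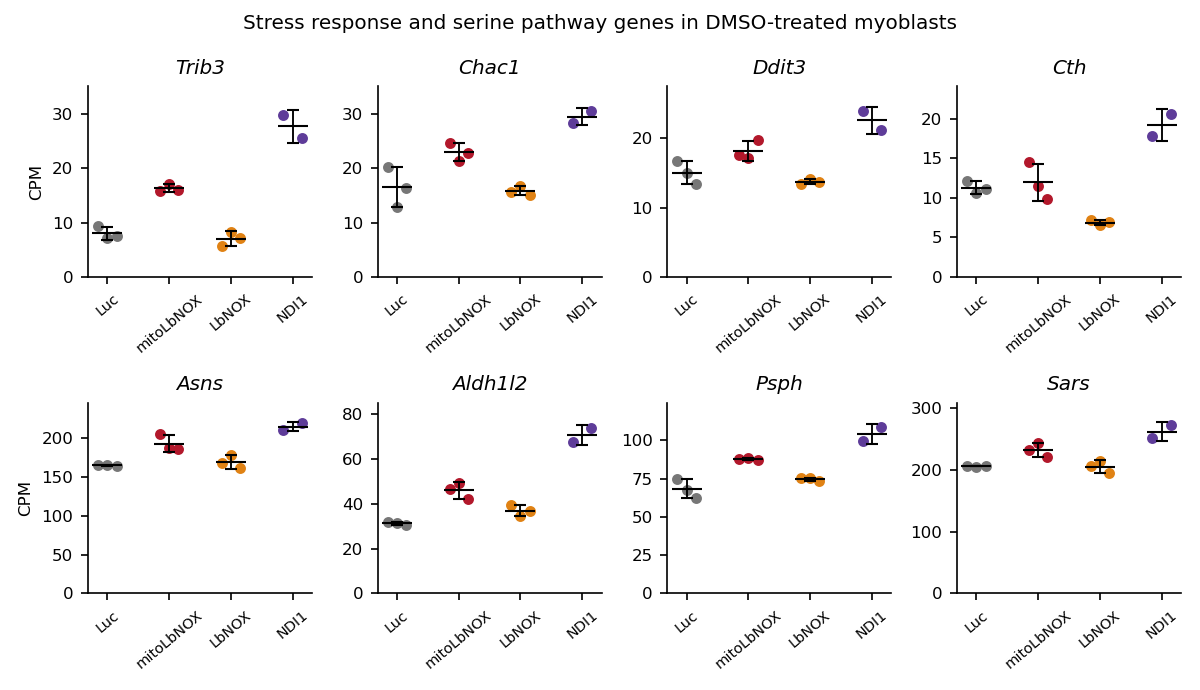
CPM (y axis, from 0) of 8 ISR, serine pathway and tRNA synthetase genes in each DMSO-treated sample of the luciferase, mitoLbNOX, LbNOX (3 samples each) and NDI1 (2 samples) lines (x axis); points are samples and black marks the mean and SD. For Trib3 the mitoLbNOX samples lie at 15.85 to 17.14 CPM, above all luciferase and LbNOX samples and below both NDI1 samples.

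Some genes of sterol and fatty acid synthesis were lower with mitoLbNOX. Of 30 tested, 0 were higher and 5 lower (0.768% of all tested genes were called lower), while 25 did not pass. The differences were positive for 5 of the 30, against 48.46% of all tested genes, and the median was -0.17. Among the called members were Scd2, a stearoyl-CoA desaturase, and the mevalonate and sterol enzymes Msmo1, Hmgcs1 and Fdps. Scd2 fell from 612, 597 and 634 CPM to 488, 502 and 468 CPM (log2 -0.34 ± 0.04, adjusted p = 1.43e-05). Msmo1, a C4-methylsterol oxidase, fell from 124.6, 127.5 and 133.2 CPM to 107.2, 99.32 and 105.6 CPM (-0.30 ± 0.05, 0.000428). For neither gene did the groups overlap. Hmgcs1 (-0.29) and Fdps (-0.19) fell as well, Hmgcs1 without a call when mitoLbNOX 2 was left out and Fdps when any 1 of 5 samples was, and Idi1 (-0.26 ± 0.07, 0.0535) did not pass. In the direct comparison of mitoLbNOX with LbNOX none of the 5 was called, with Scd2 at -0.13 ± 0.04 (0.472) and Msmo1 at -0.11 ± 0.05 (0.8003). Of the 30 genes, 26 were negative and 3 positive in that comparison, with a median of -0.1. Against the same luciferase samples LbNOX gave 0 higher and 2 lower, and NDI1 0 higher and 5 lower.

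The letters TCACNCCAC, a form of the sterol regulatory element, were present in 1.242% of the RefSeq windows. Among genes with a window they were in 5 of 64 called lower (7.812%) and 2 of 86 called higher (2.326%). The share was 1.371% of the tested genes with a window. Of the 20 sterol and fatty acid genes with a window, they were in that of Hmgcs1, where they are shown in capitals.
Hmgcs1, chr13:119690188-119690248, plus strand, 137 before the start: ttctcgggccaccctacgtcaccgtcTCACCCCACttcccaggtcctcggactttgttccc

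Of the listed nuclear genes for subunits of the respiratory chain and ATP synthase none was called (1.74% of all tested genes were). The 36 complex I subunits had a median of -0.04, 11 of them with a positive difference, and for all 36 the 95% interval lay within 0.5 log2 units of 0. The closest to a call was Ndufb7 in the chromosome 8 stretch (0.27 ± 0.07, adjusted p = 0.0534). The 21 subunits of complexes III and IV gave 0 calls, 3 positive differences and 21 intervals within 0.5, and the 16 ATP synthase subunits 0 calls, 1 positive difference and 15 such intervals, so that most differences in these 3 lists were small and negative (48.46% of all tested genes were positive). This was not particular to mitoLbNOX. Against the same luciferase samples, LbNOX gave 13, 1 and 0 positive differences in the 3 lists and NDI1 6, 0 and 0. In the direct comparison with LbNOX, mitoLbNOX was higher for 24 of 36, 15 of 21 and 11 of 16. Of the 18 glycolytic genes and the 22 genes of NAD synthesis and use none was called, which leaves differences within the intervals undetected and does not show that the lines were alike.

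In the NADH shuttles, 1 of 19 genes was called (1.74% of all tested genes were), Got2 of the malate-aspartate shuttle, at 259, 255 and 264 CPM with luciferase and 297, 300 and 291 CPM with mitoLbNOX (log2 0.19 ± 0.04, adjusted p = 0.0128). Got2 lies in the chromosome 8 stretch, and it was not called without luciferase 1, luciferase 2, mitoLbNOX 1 or mitoLbNOX 2. Of the 33 genes around pyruvate dehydrogenase and the TCA cycle, the cytosolic NADP-dependent isocitrate dehydrogenase Idh1 was lower (-0.37 ± 0.09, 0.0171), a call lost without luciferase 2, mitoLbNOX 1 or mitoLbNOX 3. Idh1 also differed from luciferase by -0.41 in LbNOX cells and by -0.27 in NDI1 cells, the latter without a call. Of the 15 transcripts encoded by mitochondrial DNA, 2 were lower (0.768% of all tested genes were). They were the 16S rRNA mt-Rnr2, at 21940, 17200 and 18320 CPM with luciferase and 14540, 11800 and 12460 CPM with mitoLbNOX (-0.57 ± 0.10, 0.000899), and mt-Co3, a subunit of cytochrome c oxidase (-0.32 ± 0.06, 0.000829). Luciferase 1 had the highest mt-Rnr2 value, and without it and mitoLbNOX 3 neither was called (adjusted p = 0.0965 and 0.0687). In LbNOX cells mt-Rnr2 read 15120, 11900 and 14260 CPM and in NDI1 cells 14370 and 15040 CPM. These values also lay below the lowest luciferase sample, so low mt-Rnr2 was not particular to mitoLbNOX.

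In the remaining lists the calls were few, against 0.977% higher and 0.768% lower of all tested genes. There were 0 calls among 24 mitochondrial chaperones, proteases and import factors, 22 HIF targets, 27 NRF2 antioxidant genes, 28 replication genes, 25 G2 and mitosis genes, 18 purine and pyrimidine enzymes and 15 interferon-stimulated genes. Among the immediate early genes Ctgf, a matricellular protein, rose from 169, 175 and 185 CPM to 220, 254 and 227 CPM (log2 0.40 ± 0.06, adjusted p = 0.000165) and the related Cyr61 differed by 0.17 (0.0382), the latter without a call when any 1 of 5 samples was left out. Of 23 p53 targets the cyclin Ccng1 was lower (-0.36 ± 0.06, 0.000142), with Cdkn1a at -0.17 ± 0.05 (0.104) and Trp53inp1 at -0.45 ± 0.26 (0.551). Ccng1 was also called lower than with luciferase in LbNOX cells (-0.30) and NDI1 cells (-0.37). The S-phase genes Ccne1 (-0.05 ± 0.09) and Tk1 (0.06 ± 0.05) did not pass. Of the 9 tested muscle differentiation genes, the acetylcholine receptor subunit Chrna1 was lower (-0.21 ± 0.06, 0.0388), a call that also rested on single samples.

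**Figure D4:**
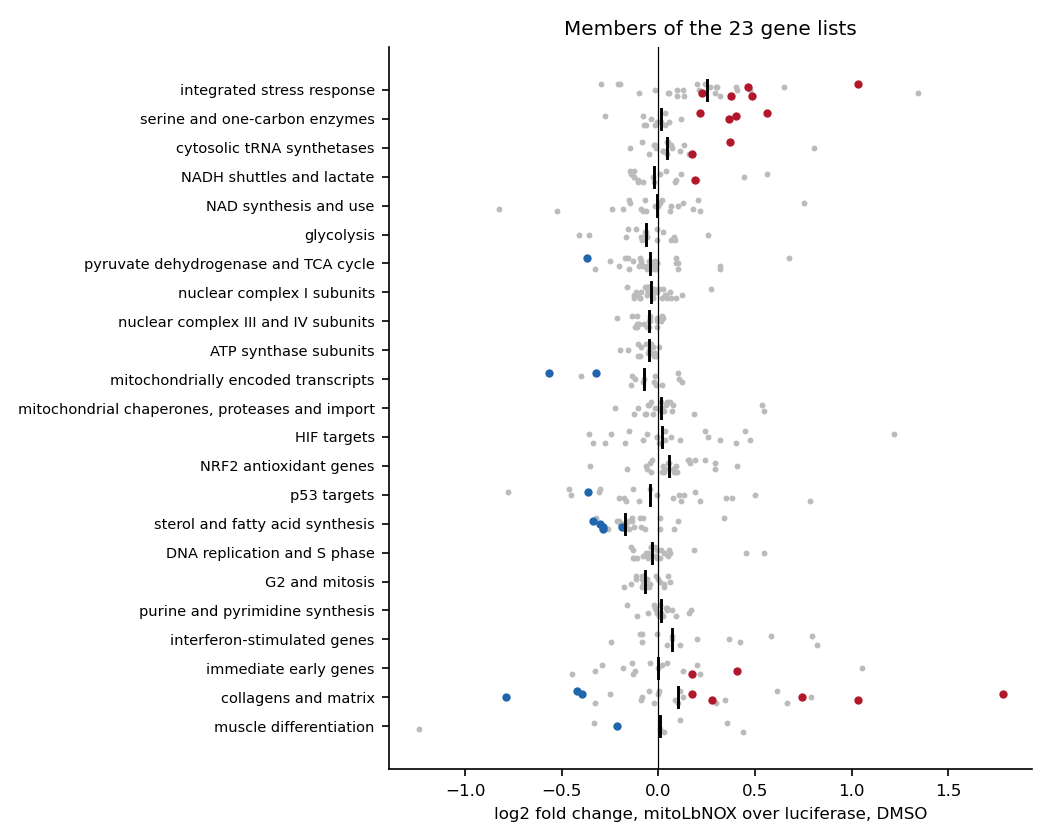
Log2 fold change of mitoLbNOX over luciferase with DMSO (x axis) for each tested member of 23 gene lists (y axis), with members called higher in red, called lower in blue and not called in grey, and the list median as a black bar. The ISR median lies at 0.25 and that of sterol and fatty acid synthesis at -0.17, while the medians of the complex I, complex III and IV and ATP synthase subunits lie near 0.

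The direct comparison of mitoLbNOX with LbNOX sets the matrix enzyme against the same enzyme without the targeting sequence. The groups also differ in transcript level (2.029 times) and in the stable line, so compartment, level and line cannot be told apart, and the luciferase samples enter only through the spread shared by the 37 samples. The comparison called 37 of 11978 genes (0.309%), 26 higher (0.217%) and 11 lower (0.0918%) with mitoLbNOX. When 1 of the 6 replicates was left out 12 to 21 genes were called, and 7 of the 37 were called whichever it was, namely Trib3, Cth, Eif4ebp1, Hmox1, P4ha1, Prl2c2 and Nefl. Of the 30 ISR genes, 4 were higher and 0 lower, with 26 of 30 positive and a median of 0.19 (0.003 for all tested genes). Trib3 was the leading gene, at 5.64, 8.34 and 7.12 CPM in LbNOX cells against 15.85 to 17.14 CPM with mitoLbNOX (log2 1.20 ± 0.10, adjusted p = 4.74e-09). Cth, which makes cysteine, read 7.13, 6.55 and 6.94 CPM in LbNOX cells and 14.5, 11.4 and 9.85 CPM in mitoLbNOX cells (0.81 ± 0.11, 0.000144), so the groups did not overlap. Against luciferase, at 12.1, 10.6 and 11.1 CPM, mitoLbNOX cells did overlap for Cth (0.10 ± 0.11, 0.793). Chac1 (0.53 ± 0.11, 0.0265) and Ddit3 (0.40 ± 0.07, 0.00562), the transcription factor CHOP, completed the called ISR genes. Ddit3 was not called without mitoLbNOX 3 (adjusted p = 0.1142), and Chac1 was called in 1 of the 6 fits that left out a replicate.

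The same comparison also called the serine and folate enzymes Aldh1l2 (0.32 ± 0.06, adjusted p = 0.0163), Psph (0.24 ± 0.05, 0.0273) and Mthfd2 (0.20 ± 0.05, 0.0459), the tRNA synthetase Sars (0.18 ± 0.04, 0.032), and Eif4ebp1, an ATF4 target that restrains translation initiation (0.28 ± 0.03, 1.59e-05). With a replicate left out, Aldh1l2 and Sars were called in 2 of 6 fits and Psph and Mthfd2 in 0. Some genes outside these pathways were also called. mt-Nd1 (0.39 ± 0.09, 0.035), mt-Nd2 (0.43 ± 0.10, 0.0481) and mt-Cytb (0.37 ± 0.08, 0.0409), which encode subunits of complexes I and III, were higher with mitoLbNOX, and the 15 mitochondrially encoded transcripts had a median of 0.27. Against luciferase these 3 differed by 0.02, 0.12 and 0.11 with mitoLbNOX (list median -0.07) and by -0.37, -0.31 and -0.26 with LbNOX (list median -0.31). The calls of mt-Nd2 and mt-Cytb held in 1 of 6 such fits and that of mt-Nd1 in 2. Ctgf (-0.30 ± 0.06, 0.0241) and Cyr61 (-0.24 ± 0.05, 0.00772), higher with mitoLbNOX than with luciferase, were lower than with LbNOX, as were the haem oxygenase Hmox1 (-0.45 ± 0.07, 0.00186), lactate dehydrogenase Ldha (-0.16 ± 0.04, 0.032) and the collagen prolyl hydroxylase P4ha1 (-0.31 ± 0.05, 0.00258). The proliferin genes Prl2c2 (-0.66) and Prl2c3 (-0.60) were lower too, but they are near-identical copies between which reads may be split, so each is uncertain. Ctgf, Cyr61 and Ldha were called in 2 of the 6 fits and Prl2c3 in 4. A model of the groups compared alone, which also tests fewer genes and has fewer samples behind the spread, called 3 genes.

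LbNOX and NDI1 cells were compared with the same luciferase samples, so their values are given only side by side. LbNOX against luciferase called 319 genes (2.66%), 1.29% higher and 1.37% lower, and NDI1 against luciferase 548 (4.58%), 2.72% higher and 1.85% lower. For the ISR, LbNOX gave 1 gene higher and 1 lower with a median of -0.01, mitoLbNOX 5 higher with 0.25, and NDI1 17 higher with 0.52. Trib3 differed from luciferase by -0.17 with LbNOX, 1.03 with mitoLbNOX and 1.79 with NDI1. Aldh1l2 differed by 0.24, 0.56 and 1.18, and Psph by 0.13, 0.36 and 0.61, in the same order of lines. For other leading genes the 3 values lay close together, as for Spp1 (-0.82, -0.82 and -0.75), Mgp (-1.09, -0.98 and -1.02), Hgf (-1.38, -1.35 and -1.61) and Col6a2 (1.92, 1.78 and 2.19). Klhl13 differed between the lines, at 1.92, 1.89 and -2.68.

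The piericidin and antimycin samples gave the same pair of lines in other samples. With piericidin, 6700 genes (55.9%) differed between mitoLbNOX and luciferase, 28.1% higher and 27.9% lower, and with antimycin 5512 (46.0%), 22.2% higher and 23.8% lower. Of the 117 genes higher with DMSO, 58 (49.57%) were also called higher with piericidin and 58 with antimycin, while 42 and 25 were called lower. Of the 92 lower genes, 51 (55.43%) were also lower with piericidin and 69 (75%) with antimycin, while 28 and 10 were called higher. Outside the chromosome 8 stretch the shares of higher genes were 44.87% with either inhibitor. In the same direction under both inhibitors were 39 of the higher genes (33.33%, against 13.32% of all tested genes called higher in both), Klhl13, Col6a1 and Bmp4 among them, and 44 of the lower genes (47.83%, against 15.88%), among them Spp1, Col18a1 and Des.

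Some members of the ISR and sterol lists were called in opposite directions with and without an inhibitor. In the mitoLbNOX line, Trib3 stood at 16.32 ± 0.711 CPM (SD, n = 3) with DMSO, 106.8 ± 5.52 CPM with piericidin and 367.2 ± 11.98 CPM with antimycin, and in the luciferase line at 8.025 ± 1.203, 306.5 ± 18.54 and 456.2 ± 4.366 CPM. The mitoLbNOX cells were thus above luciferase cells without an inhibitor and below them with either, with a difference of differences of -2.55 (edgeR, adjusted p = 8.53e-17) with piericidin and -1.34 (3.89e-10) with antimycin. Such a difference passed for 42.9% of all tested genes with piericidin and 31.7% with antimycin. As Trib3 and Scd2 were chosen for opposite calls, these tests restate that choice. Of the 30 ISR genes, 0 were higher and 29 lower in mitoLbNOX cells with piericidin (median -1.53), and 5 higher and 15 lower with antimycin (median -0.36). Scd2 had the opposite pattern, standing at 614.4 ± 18.8 CPM with DMSO and 58.54 ± 2.831 CPM with piericidin in luciferase cells, against 485.8 ± 17.2 and 291.9 ± 14.66 CPM in mitoLbNOX cells (n = 3 each). Its difference of differences was 2.66 (adjusted p = 1.31e-23) with piericidin. Of the 30 sterol and fatty acid genes 25 were higher and 1 lower with piericidin (median 0.86), and 18 were higher and 4 lower with antimycin (median 0.30). Msmo1 was called lower with DMSO (-0.30), piericidin (-0.52) and antimycin (-0.47) alike.

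**Figure D5:**
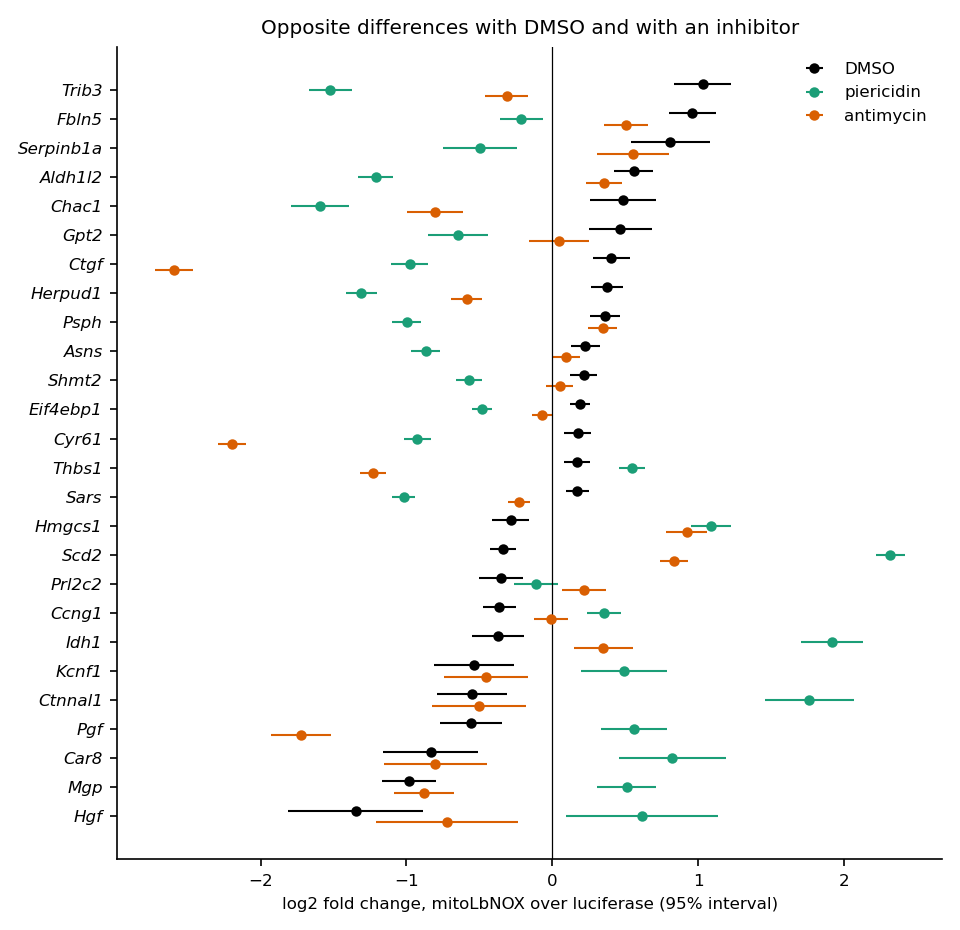
Log2 fold change of mitoLbNOX over luciferase with its 95% interval (x axis) for the 26 named genes (y axis) whose difference was called in opposite directions with DMSO (black) and with piericidin (green) or antimycin (orange). Trib3 lies at 1.03 with DMSO and at -1.52 with piericidin, and Scd2 at -0.34 and 2.32.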

How the data were processed

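RNA was sequenced by the authors as polyA-selected Smart-seq2 libraries, without strand information, so reads of overlapping antisense genes cannot be told apart. Per the labels, files were demultiplexed with bcl2fastq 2.20.0.422 and quantified with bias-corrected kallisto 0.44 on transcripts of the mouse genome build GRCm38.p6 and the transgenes, summed over flow cells and aggregated to genes with tximport. The deposited values are estimated counts in whole numbers, not normalized, for 54146 genes and 4 transgenes. Transgene rows were left out of tests.

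A gene was tested where 1 of 13 conditions had 16 or more counts in all its replicates (11978 genes), and 1 model held the 37 myoblast samples of the 10 hr treatments, in edgeR 4.0.16 (TMM, quasi-likelihood F test, Benjamini-Hochberg adjustment over all genes of a comparison, threshold 0.05) in R 4.3.3 with limma 3.58.1. The standard error is the absolute log2 difference divided by the square root of F, and CPM use TMM library sizes. Counts and intervals cover counting error and the spread between these samples only. There were 8 comparisons, 2 of them differences of differences added after seeing the data. Tests were tried on simulated data. Windows along chromosomes, motif searches and summaries used Python 3.11.15, pandas 2.3.3 and SciPy 1.17.1.

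Genes were named by rule, as at most 15 higher and 15 lower genes by the size of the called difference, given a mean of at least 50 counts over the 6 samples, groups that did not overlap and no predicted gene names, with the leading members of each list and 10 genes that the study names for its RNA-seq. Other called list members are given beside these. Members and lists were chosen with earlier results of these data known. Alternatives were DESeq2 1.42.0 size factors, DESeq2's Wald test, no count filter, only the groups compared, the replicate number as a block, outer or inner position as a covariate, and leaving out each replicate. The position was read from codes that the labels do not explain, taken as rows and columns of a plate. Leaving out both samples at the ends of the first principal component and not counting the chromosome 8 stretch were chosen after seeing the data. Replicate numbers did not pair the samples. Of 96 samples, those of other cell states were not used here. One of the called genes is not reported here.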

Additional observations from a re-analysis of the deposited data

Results flagged for a closer look

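For 26 of the genes named in the text the difference between mitoLbNOX and luciferase cells was called in opposite directions with DMSO and with an inhibitor, and the difference of both differences (edgeR, log2, inhibitor minus DMSO) passed an adjusted p of 0.05. Genes with opposite calls are nearly bound to pass it, so the test adds no support to the choice. Of all tested genes, 42.9% passed that test with piericidin and 31.7% with antimycin. Among all called genes, 42 of the 117 higher with DMSO were called lower with piericidin and 25 with antimycin. Of all tested genes, 27.88% and 23.84% were called lower with these inhibitors. Of the 92 genes lower with DMSO, 28 and 10 were called higher, against 28.05% and 22.17% of all tested genes.

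Genes that were higher with DMSO and lower with piericidin were the ISR genes Trib3 (-2.55), Chac1 (-2.08), Herpud1 (-1.68), Gpt2 (-1.11) and Asns (-1.10), Eif4ebp1 (-0.67), the serine and folate enzymes Aldh1l2 (-1.77), Psph (-1.36) and Shmt2 (-0.79), the tRNA synthetase Sars (-1.19), the matricellular genes Ctgf (-1.38) and Cyr61 (-1.10), Fbln5 (-1.17) and Serpinb1a (-1.31). Genes that were lower with DMSO and higher with piericidin were Scd2 (2.66) and Hmgcs1 (1.37) of lipid synthesis, Idh1 (2.29), Ccng1 (0.72), the growth factors Hgf (1.96) and Pgf (1.12), Mgp (1.49), Car8 (1.66), Ctnnal1 (2.31) and Kcnf1 (1.03).

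With antimycin the same change of direction was called for Trib3 (-1.34), Chac1 (-1.29), Herpud1 (-0.96), Sars (-0.40), Ctgf (-3.00), Cyr61 (-2.37) and Thbs1 (-1.40), which were higher with DMSO, and for Idh1 (0.72), Scd2 (1.18), Hmgcs1 (1.21) and Prl2c2 (0.57), which were lower. Prl2c2 shares reads with near-identical copies. Herpud1 and Gpt2 lie in the chromosome 8 stretch in which the luciferase line stood apart.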

How the results depend on the processing

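The 209 calls of mitoLbNOX against luciferase became 532 without the count filter (403 higher and 129 lower, or 75.75% higher against 55.98%, with 159 shared), 90 in a model of only the groups compared (88 shared) and 96 without luciferase 1 and mitoLbNOX 3 (67 higher, or 69.79%). They were 143 to 191 when 1 replicate was left out, and stayed within 1.5 times with DESeq2 size factors (199), the Wald test (240), the replicate number as a block (238), position (233) and without the chromosome 8 stretch (170). For mitoLbNOX against LbNOX, 37 calls became 133 without the filter, 3 with only the groups compared, 42 with the block and 12 to 21 without 1 replicate. LbNOX against luciferase had 319 calls, 169 with only the groups compared, 200 without both samples and 205 to 253 without 1 replicate. NDI1 against luciferase had 548, 226 and 276 to 468 in the first, second and last of these. Without 1 replicate, piericidin gave 6187 to 6232 calls (5976 to 6073 of them among the 6700) and antimycin 4972 to 5086 (4776 to 4867 among the 5512), and the differences of differences 4761 to 4898 and 3409 to 3627. The distance ratio ran from 1.001 to 1.165.

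Same-numbered samples of luciferase and mitoLbNOX did not deviate together (correlations of 0.098, -0.256 and 0.021). The correlations were 0.347, 0.253 and 0.002 for luciferase with LbNOX and 0.199, -0.009 and 0.24 for mitoLbNOX with LbNOX, so in no pair of lines were all 3 over 0.1. The block is therefore only an alternative, and under it none of the 49 named called genes lost its call. No named gene changed direction among its called values. With only the groups compared 19 lost their call, and 23 without luciferase 1 and mitoLbNOX 3. Called ISR genes ranged from 2 to 9, sterol genes from 2 to 7 and mitochondrially encoded transcripts from 0 to 5 over the alternatives. The count of 16 limits the test to genes with reads in every replicate of a condition.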

Other observations

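Genes outside the lists, chosen after their values were seen, also differed between mitoLbNOX and luciferase cells. The phosphatases Dusp6 and Dusp4, which are targets and feedback inhibitors of ERK signalling, were both lower. Dusp6 read 63.73, 58.8 and 60.08 CPM with luciferase and 42.63, 46.06 and 46.62 CPM with mitoLbNOX (log2 -0.43 ± 0.09, edgeR adjusted p = 0.00326), and Dusp4 differed by -0.41 ± 0.09 (0.00462). The chromatin proteins Hmga1 (-0.52, 0.00544) and Hmga2 (-0.48, 0.0185) and the cyclin Ccnd2 (-0.38, 0.00651) were lower too, Ccnd2 without a call when luciferase 1 or mitoLbNOX 3 was left out, Hmga2 when luciferase 1, luciferase 3, mitoLbNOX 1 or mitoLbNOX 2 was, and Dusp6 and Hmga1 when luciferase 1 and mitoLbNOX 3 both were. In the direct comparison with LbNOX these 5 genes had adjusted p of 1, with Dusp6 at -0.12 and Hmga2 at 0.05.

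Of the 27 NRF2 antioxidant genes 0 were called. The 2 genes that follow come from no fixed list, and 0.977% of all tested genes were called higher. Extracellular superoxide dismutase, Sod3, read 31.91, 31.24 and 30.85 CPM with luciferase and 51.2, 47.02 and 51.36 CPM with mitoLbNOX (0.67 ± 0.08, adjusted p = 5.92e-06), and the peroxiredoxin Prdx2, which lies in the chromosome 8 stretch where the luciferase line stood apart, differed by 0.21 ± 0.04 (0.000318). Against LbNOX, Sod3 differed by -0.03 and Prdx2 by -0.04, both with an adjusted p of 1.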
